A study of Mus musculus with 38 samples.

Results

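The genes described here are Fmr1, its paralogs Fxr1 and Fxr2, and 6 genes whose proteins work with FMRP, the product of Fmr1, in the control of translation: Cyfip1, Cyfip2, Eif4e, Eif4ebp2, Nufip1 and Caprin1. These 9 genes were picked by symbol from the 54165 genes of the count table, with results on genotype in prefrontal cortex (PFC) already known, so every genotype value in PFC is given as a description with no test. The rule has no threshold. Genotype in hypothalamus (Hypo), sex, and the difference between tissues were not used to pick the genes and were tested. The study had already reported from these data that in Hypo only Ube3a passed for genotype, and no gene for its interaction with sex.

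Bulk RNA sequencing was done on PFC and Hypo of adult FVB/NJ mice of both sexes, either Ube3a2x, homozygous for a transgene that adds Ube3a with a tag at its C terminus, or wild type (WT). PFC had 5 libraries in each of the 4 groups of genotype and sex, and Hypo had 4 WT female, 5 Ube3a2x female, 4 WT male and 5 Ube3a2x male libraries. The 38 libraries came from 25 mice, 13 of which gave both tissues. PFC was taken by micropunch and Hypo was excised, and the RNA kit and the amount of RNA put into the library differed between them, so dissection, kit and input cannot be told apart from tissue. The study asked whether added Ube3a changes gene expression differently in the 2 sexes.

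FMRP binds mRNAs on polyribosomes and holds back their translation, and its loss causes fragile X syndrome. CYFIP1 links FMRP to eIF4E, the protein that binds the mRNA cap, while 4E-BP2, encoded by Eif4ebp2 and the main 4E-BP of brain, keeps eIF4E from the scaffold eIF4G until mTORC1 phosphorylates it. Both CYFIP proteins are also subunits of the WAVE complex, which drives branching of actin filaments in dendrites, so the same proteins serve translation and spine shape. NUFIP1 is a nuclear partner of FMRP with a role in assembling box C/D small nucleolar RNPs, and CAPRIN1 joins FMRP and G3BP1 in neuronal RNA granules.

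Fmr1 lies on the X chromosome (GRCm38, chrX:68678541-68717963, plus strand) and the other members are autosomal: Fxr1 at chr3:34019943-34070322, Fxr2 at chr11:69632990-69653297, Cyfip1 at chr7:55841745-55932602, Eif4e at chr3:138526179-138559696 and Nufip1 at chr14:76110891-76137379 on the plus strand, and Cyfip2 at chr11:46193850-46312859, Eif4ebp2 at chr10:61428491-61452661 and Caprin1 at chr2:103762941-103797649 on the minus strand. Cyfip1 is on the chromosome of Ube3a, 3296148 bases from it. The exons of Fmr1 held 38.6% G and C and those of Fxr1 41.2%, against 55.5% in Fxr2, 53.2% in Eif4ebp2 and a median of 49.1% over protein-coding genes. Cyfip1 shares 1316 exon bases with Nipa2, and Fxr1 178 with Dnajc19, on the opposite strand. Libraries were stranded, with 91.5 to 99.1% of reads on the expected strand, and whether counting used the strand was not stated in the sources used here, so a part of the Cyfip1 and Fxr1 counts may come from these neighbours.

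Promoters are shown for 2 paralogs because Fmr1 and Fxr2 stood at opposite ends of the family in base composition and in how their levels moved with library quality. RefSeq (GRCm38.p6) gave a promoter for 8 of the 9 genes, all but Cyfip1. The 250 bases before an annotated start are printed, chrX:68678291-68678540 for Fmr1 and chr11:69632721-69632970 for Fxr2, both plus strand. Fmr1 has another annotated start, whose window, chrX:68678332-68678581, is not printed. Capitals mark matches, on either strand, to the GC box GGGCGG, the E-box CACGTG or the NRF1 core GCATGCGC.
Fmr1: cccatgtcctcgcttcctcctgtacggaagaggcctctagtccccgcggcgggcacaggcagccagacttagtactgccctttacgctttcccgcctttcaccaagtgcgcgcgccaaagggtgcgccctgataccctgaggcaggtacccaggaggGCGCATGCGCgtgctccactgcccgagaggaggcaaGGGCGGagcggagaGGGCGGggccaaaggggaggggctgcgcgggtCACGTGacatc
Fxr2: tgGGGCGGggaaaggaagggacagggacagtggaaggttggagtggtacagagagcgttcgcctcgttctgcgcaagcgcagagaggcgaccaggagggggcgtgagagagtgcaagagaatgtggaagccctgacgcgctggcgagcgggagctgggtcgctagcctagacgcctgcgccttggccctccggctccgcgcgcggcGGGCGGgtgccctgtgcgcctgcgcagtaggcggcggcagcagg
The Fmr1 window held 2 GC boxes, 1 E-box and 2 NRF1 core matches on opposite strands that share bases, and the Fxr2 window held 2 GC boxes and neither of the other motifs. Of 32851 promoter windows of this length, 32.7% held a GC box, 6.0% an E-box and 2.3% the NRF1 core. The CRE (TGACGTCA), the CCAAT box and the TATA box (TATAAA) were also searched and had no match in either window. The windows were 67.2% and 69.6% G and C, against a median of 52.4%, and antisense or small RNA exons overlap the Fmr1 window.

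Counted reads per library numbered from 36887511 to 69142160 in PFC and from 39048341 to 380819301 in Hypo. Ube3a was at 183 to 260 CPM (counts scaled to a common library total) in WT and 686 to 2169 CPM in Ube3a2x libraries of PFC, and at 104 to 355 and 745 to 1724 CPM in Hypo, so every library matched its genotype label. The cortex markers summed to 563 to 806 CPM in PFC and 29.9 to 55.5 CPM in Hypo, and the 8 hypothalamus markers to 0.557 to 1.25 and 413 to 1909 CPM, as the tissue labels say. The library of Hypo WT female 471 stood apart, with a median correlation of 0.907 to its group and the hypothalamus marker sum of 1909 CPM, against 852 CPM or less in the other 17 Hypo libraries. In PFC, Ube3a2x female 468 had an AT dropout of 10.6 (a measure of how far AT-rich sequence is under-represented), against 14.4 or more in the other libraries. WT female 397, at 21.1, had the highest AT dropout of the WT libraries and the lowest median correlation to its group among them (0.980), while Ube3a2x males 238 and 402 were at 22.1 and 21.8. The lowest correlation to its group in PFC was that of Ube3a2x male 258 (0.959), below that of 468 (0.968). Samples were separate mice within each group, and no pair of libraries of 1 group agreed within sampling noise.

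All 9 genes were expressed in both tissues. Levels between genes are compared per kilobase of exon (RPKM, from CPM and the exon length of GENCODE vM21). Cyfip2 led in PFC at 229 ± 26.9 RPKM (SD, n = 20), followed by Fxr2 at 30.6 ± 2.52, Caprin1 at 26.4 ± 2.27, Eif4e at 23.9 ± 1.72, Fmr1 at 13.8 ± 1.93, Eif4ebp2 at 12.1 ± 1.63, Fxr1 at 11.3 ± 1.68, Cyfip1 at 5.94 ± 0.497 and Nufip1 at 3.25 ± 0.281 RPKM. Fxr2, Caprin1 and Eif4e overlapped with their neighbour in this order, as did Fmr1, Eif4ebp2 and Fxr1, while Cyfip2, Cyfip1 and Nufip1 did not overlap with the gene next to them. In Hypo the upper 4 ranks were the same, with Cyfip2 at 96.9 ± 13.9 and Fxr2 at 33.9 ± 2.03 RPKM (SD, n = 18), but Fxr1 at 17.05 ± 1.495, Eif4ebp2 at 14.8 ± 1.66 and Cyfip1 at 7.74 ± 0.683 RPKM came before Fmr1 at 6.21 ± 0.917 and Nufip1 at 4.002 ± 0.402 RPKM. In Hypo only Cyfip2 and Eif4ebp2 did not overlap with the gene ranked next below.

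**Figure D1:**
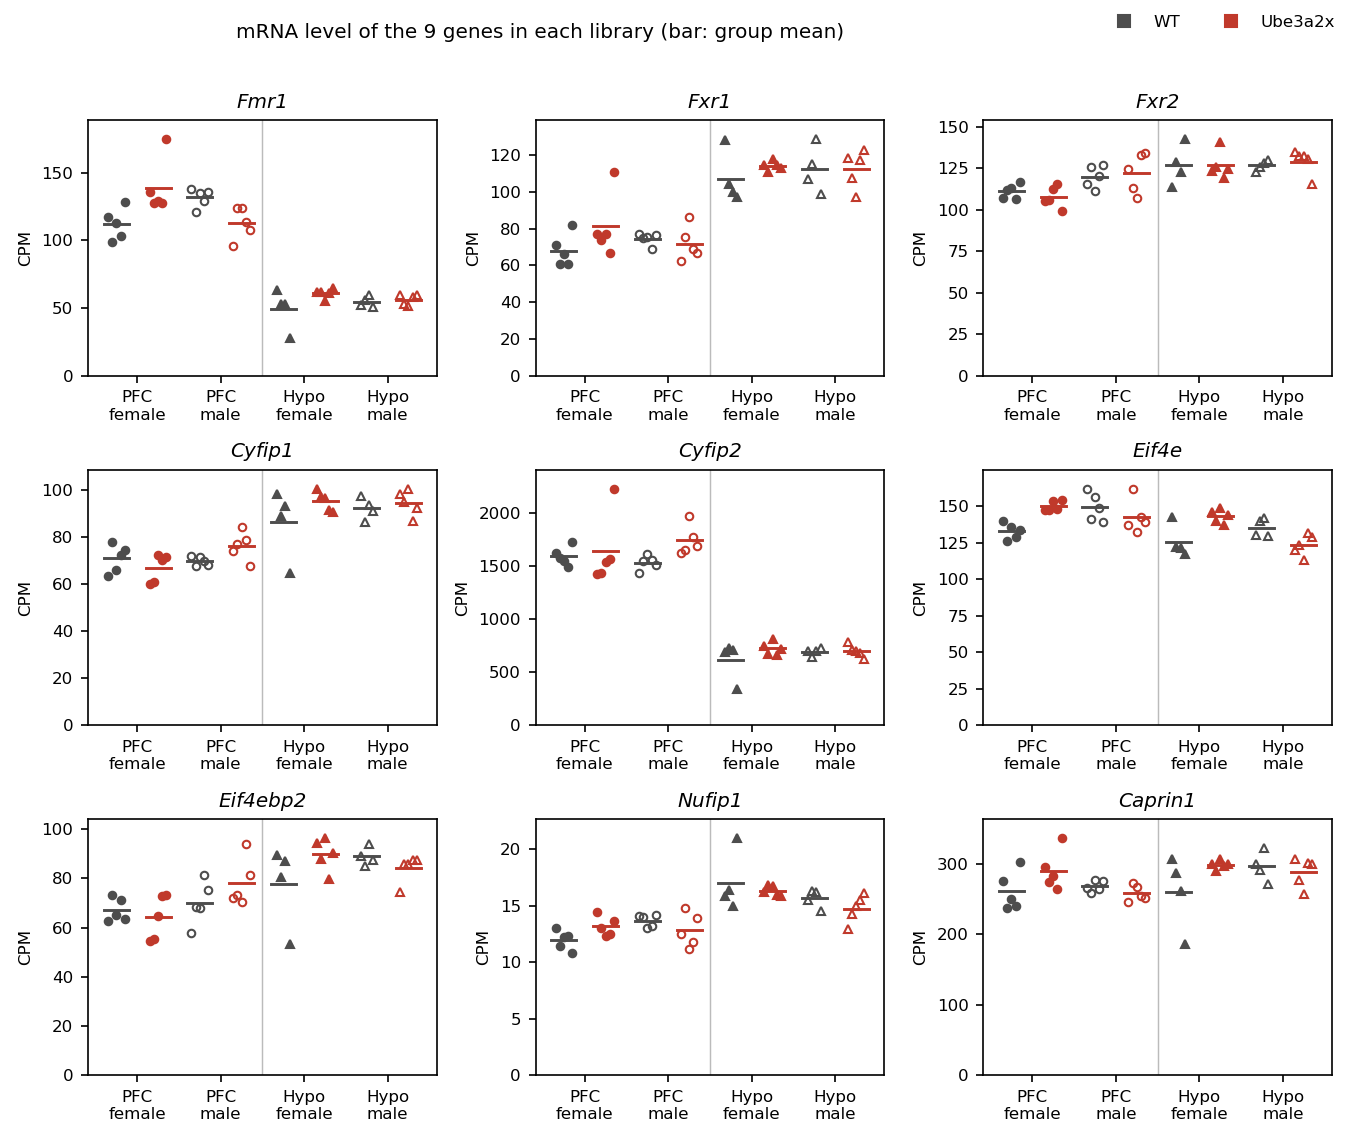
Level of each gene in CPM (vertical axis, from 0) in every library, by tissue and sex on the horizontal axis. Grey is WT, red is Ube3a2x, circles are PFC, triangles Hypo, filled points are females, and bars are group means. Fmr1 and Cyfip2 are higher in every PFC library than in any Hypo library, and the single low WT female point in Hypo for Fmr1 and Cyfip2 is mouse 471.

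The largest differences were between tissues. Fmr1 and Cyfip2 were higher in PFC, by 2.33-fold and 2.43-fold, and Eif4e by 1.10-fold, while Fxr1, Cyfip1, Eif4ebp2, Nufip1 and Fxr2 were lower and Caprin1 did not pass the test. Thus 8 of 9 members were called at an adjusted p under 0.05 in edgeR's quasi-likelihood test, 3 higher and 5 lower in PFC. Of all 12494 genes tested, 66.6% were called, 32% higher and 34.6% lower in PFC, and whether the members differ from this background was not tested. The median log2 difference was -0.17 over the members and -0.02 over all genes. In bulk tissue, fewer cells of a type and less RNA per cell cannot be told apart.

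Fmr1 itself ranged from 95.8 to 175 CPM in PFC (median 126, n = 20) and from 28.0 to 65.2 CPM in Hypo (median 57.1, n = 18). The tissues did not overlap, and PFC was higher in 13 of the 13 mice with both tissues, by 0.68 to 1.42 on the log2 scale. The fitted log2 difference was 1.22 (SE 0.102, adjusted p = 1.28e-12 in edgeR). Its paralogs lay on the other side. Fxr1 ranged from 60.8 to 111 CPM in PFC and 96.99 to 129 CPM in Hypo, lower in PFC in 13 of 13 mice, with a log2 difference of -0.45 (SE 0.0857, adjusted p = 2.32e-05 in edgeR). Fxr2 differed by -0.17 (SE 0.0540, adjusted p = 0.00682 in edgeR), with 99.6 to 134 CPM in PFC and 114 to 143 CPM in Hypo, and was lower in PFC in 11 of 13 mice. So in this fit the X-linked member of the family was higher in PFC and both autosomal paralogs were lower than in Hypo. Neither paralog was called when the mouse was put into the model as a block, as given below.

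The same split ran through the CYFIP pair, the FMRP partners of the WAVE complex. Cyfip2 ranged from 1422 to 2229 CPM in PFC and 339 to 816 CPM in Hypo, with a log2 difference of 1.28 (SE 0.0993, adjusted p = 1.78e-13 in edgeR) and 13 of 13 mice higher in PFC. Cyfip1 ranged from 60.2 to 84.1 CPM in PFC and 64.6 to 101 CPM in Hypo, with a log2 difference of -0.36 (SE 0.0659, adjusted p = 1.32e-05 in edgeR) and 13 of 13 mice lower. Without Hypo WT female 471, the lowest Hypo library of Cyfip1 was at 86.6 CPM and the tissues did not overlap for this gene either, as for 28.6% of all genes against 21.3% with that library.

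Among the cap-binding genes, Eif4e was at 126 to 162 CPM in PFC and 113 to 149 CPM in Hypo, with a log2 difference of 0.13 (SE 0.0510, adjusted p = 0.0213 in edgeR). Eif4ebp2, its inhibitor, was at 54.4 to 94.2 CPM in PFC and 53.3 to 96.3 CPM in Hypo, with a log2 difference of -0.30 (SE 0.0805, adjusted p = 0.00136 in edgeR). The ranges overlapped for both genes, and the direction held in 11 of 13 mice for Eif4e and 12 of 13 for Eif4ebp2. Nufip1, the least abundant member, was at 10.8 to 14.8 CPM in PFC and 12.9 to 21.0 CPM in Hypo, and differed by -0.23 (SE 0.0727, adjusted p = 0.00520 in edgeR), lower in PFC in 12 of 13 mice. Caprin1 was at 238 to 337 CPM in PFC and 186 to 323 CPM in Hypo, with a log2 difference of -0.03 (95% interval -0.17 to 0.12, adjusted p = 0.757 in edgeR), while 11 of 13 mice had a lower value in PFC (median -0.17). Without Hypo WT female 471, PFC Ube3a2x female 468 and PFC WT female 397, Caprin1 differed by -0.13 (adjusted p = 0.0313 in edgeR) and Eif4e by 0.09 (adjusted p = 0.116 in edgeR).

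With the mouse as a block over the 13 mice, 3 members were called, Fmr1 at 1.076, Cyfip2 at 1.39 and Cyfip1 at -0.45 (adjusted p = 0.000524, 4.04e-05 and 0.0165 in edgeR), where 38.5% of all genes were. In that fit Fxr1 was at -0.50 (adjusted p = 0.0839), Eif4ebp2 at -0.34 (0.0965), Fxr2 at -0.19 (0.145), Nufip1 at -0.25 (0.207) and Eif4e at 0.05 (0.786), none of them called in edgeR. Eif4e was also not called in WT libraries alone (adjusted p = 0.158), after the trend on GC content and length was removed (0.204), or without Hypo WT male 423 (0.201), all in edgeR. Fxr2 was not called in WT libraries alone (adjusted p = 0.215) or with the filterByExpr filter (0.0835), nor was Eif4ebp2 in WT libraries alone (0.0562), all in edgeR. RNA integrity (RIN) was 6.7 to 8.9 in PFC and 6.8 to 9.3 in Hypo, and AT dropout 10.6 to 22.1 and 18.3 to 24.1. The summed level of all 6 excitatory neuron markers was 5869 to 10580 CPM in PFC and 663 to 1029 CPM in Hypo, and that of all 6 oligodendrocyte markers 962 to 3453 and 3137 to 5120 CPM. Inhibitory neuron markers summed to 727.5 to 1076 and 668 to 1308 CPM, and astrocyte markers to 1355 to 2883 and 2531 to 2960 CPM. The sums were 199.7 to 322.5 and 160.9 to 205 CPM for microglia, and 154 to 387 and 131 to 178 CPM for endothelium. For choroid plexus they were 1.55 to 5.37 and 38.6 to 76.1 CPM. No marker of these lists was at 0 in a whole tissue, and their part in the differences of the 9 genes was not tested.

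**Figure D2:**
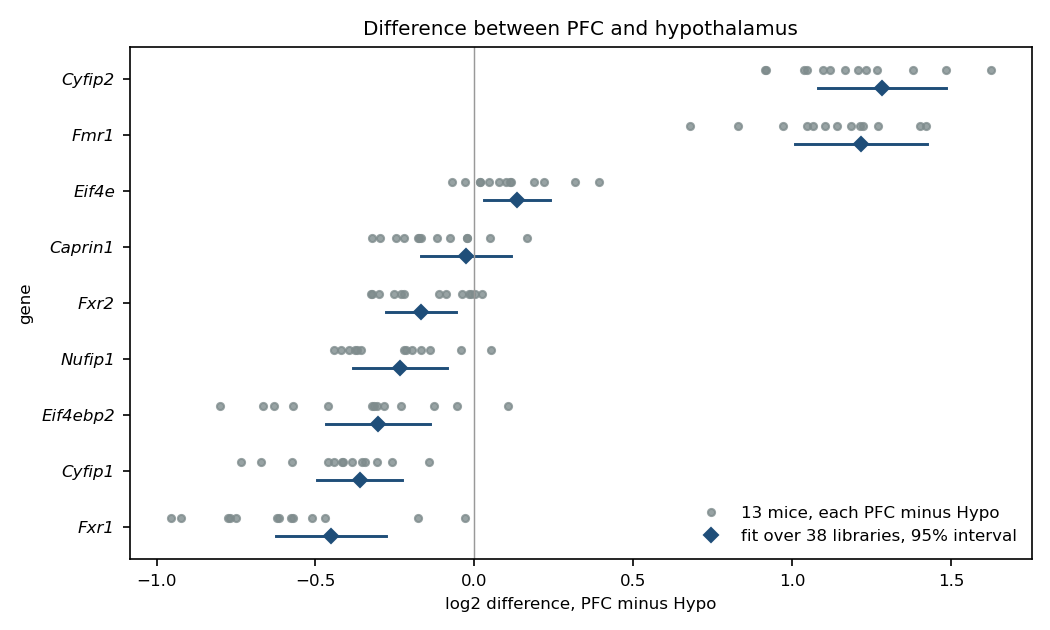
Log2 difference between PFC and Hypo (horizontal axis, positive is higher in PFC) for each gene. Grey points are the 13 mice with both tissues, and blue diamonds with lines are the estimates over 38 libraries with 95% intervals. Cyfip2 at 1.28 and Fmr1 at 1.22 stand apart from the other 7 genes, which lie between -0.45 and 0.13.

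The genes around these members in their pathways, on 7 lists with 113 genes, are given by their counts. Between tissues 109 were tested, of which 51 were higher in PFC, 23 were lower and 35 were not called, beside the 66.6% of all genes called, 32% higher and 34.6% lower. In the WAVE complex, 6 of 8 genes were higher and 1 was lower, with a median log2 difference of 0.77. Wasf1, the neuronal WAVE protein, was at 282 CPM in PFC and 57.0 CPM in Hypo (log2 difference 2.33), Abi2, an adaptor subunit, differed by 1.13, and Wasf2, the widely expressed WAVE protein, by -0.50. Among mRNAs known to be bound by FMRP, 13 of 18 were higher and 1 was lower, with a median of 0.51. Camk2a, a kinase of the postsynaptic density, was at 4805 CPM in PFC and 470 CPM in Hypo (3.37), Bsn, a presynaptic scaffold, differed by 2.02, and Sod1, a superoxide dismutase, by -0.57.

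Of the proteins of RNA granules, 6 of 22 were higher and 9 were lower in PFC, with Purb at 1.23 and Stau2 at 1.06, both RNA-binding proteins of transport granules, and Caprin2, the paralog of Caprin1, at -1.63 and the helicase Mov10 at -1.11. Of the cap-binding complex and its partners, 9 of 16 were higher, Pabpc1, which binds the poly(A) tail, at 0.85 and Eif4e3 at 0.38, and 1 was lower, the translational repressor Paip2 at -0.36. In mTORC1 and TSC signalling 9 of 19 were higher and 4 lower, with Akt2 at 1.32, Rps6 at -0.62 and Rps6kb2 at -0.44. Of the eIF2 and stress response genes 6 of 16 were higher and 3 lower, where the eIF2 kinases went both ways, with Eif2ak1 at 0.45, Eif2ak2 at -0.64 and Eif2ak4 at -0.60, and Eif2s1 at 0.28. Of the box C/D snoRNP assembly genes, the setting of NUFIP1, 2 of 10 were higher and 4 lower, with Taf9 at 0.64, Znhit3 at 0.53, Znhit6 at -0.67 and the core protein Nop58 at -0.49. Every gene named here passed the edgeR test between tissues, with adjusted p-values of at most 0.00533.

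In PFC, Fmr1 lay higher in Ube3a2x than in WT females and lower in Ube3a2x than in WT males. Its level was 99.0, 103, 113, 117 and 129 CPM in the WT females, and 127, 128, 129, 136 and 175 CPM in the Ube3a2x females. The groups met at their edges, since WT female 397, at 129 CPM, lay above 2 of the Ube3a2x females. In males the order was turned, with 121, 129, 135, 136 and 138 CPM in WT and 95.8, 108, 114, 124 and 124 CPM in Ube3a2x, where the 2 highest Ube3a2x libraries lay above the lowest WT library. WT males were also above WT females, at 132 ± 6.83 and 112 ± 11.8 CPM (SD, n = 5 each). The fitted log2 fold change of Ube3a2x against WT, with RIN and 2 surrogate variables in the model, was 0.19 (SE 0.0644) in females and -0.27 (SE 0.0580) in males, and the male minus the female effect was -0.46 (SE 0.0864). With RIN as the only covariate the female value was 0.33 and the male minus female effect -0.58. After a correction for base composition and gene length, the values were 0.11 in females and -0.14 in males. These contrasts were among those that picked the genes and have no test here.

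The paralogs followed Fmr1 in part. Fxr1 had a male minus female effect of -0.18 (SE 0.0839), with 0.10 in females and -0.09 in males. Without WT female 397 this effect was -0.09 and the female value 0.03, and without Ube3a2x female 462 they were -0.31 and 0.17. The male value of Fxr1 was -0.04 without Ube3a2x male 238 and -0.14 without Ube3a2x female 462. Its WT females were at 60.8, 61.0, 66.0, 70.8 and 81.9 CPM and its Ube3a2x females at 67.0, 74.0, 77.0, 77.2 and 111 CPM, and the groups overlapped. Fxr2 showed a difference of 0.00 (SE 0.0775) between the sexes, with -0.04 in females and in males. The fit for Fxr2, as for Eif4e and for Cyfip1 in PFC, is the one without the filter on variance, which had removed these genes.

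Eif4e, the cap-binding factor, had a male minus female effect of -0.27 (SE 0.0886) in PFC. Its WT females were at 126, 129, 134, 136 and 139.6 CPM, below all Ube3a2x females at 148, 148, 148, 154 and 154 CPM. Its WT males were at 139, 141, 149, 156 and 162 CPM and its Ube3a2x males at 132, 137, 139, 142 and 162 CPM, which overlapped. Eif4e was the 1 member of 9 whose female groups did not overlap, as for 1.75% of all genes with Ube3a2x higher and 0.951% with it lower. In males the 1 such member was Cyfip2, with 1436, 1515, 1545, 1555 and 1611 CPM in WT and 1627, 1649, 1687, 1777 and 1969 CPM in Ube3a2x, as for 2.52% of genes with Ube3a2x higher and 0.741% with it lower. These counts come from the contrasts that picked the genes.

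The remaining members went both ways. Nufip1 had a male minus female effect of -0.27 (SE 0.127) and Caprin1 of -0.14 (SE 0.0703), in the direction of Fmr1. Cyfip2 at 0.19 (SE 0.0940), Cyfip1 at 0.16 (SE 0.0910) and Eif4ebp2 at 0.10 (SE 0.127) had positive values. Eif4ebp2 was at 0.01 without WT male 245, and Caprin1 was at -0.24 when Ube3a2x female 462 was left out and at -0.09 when Ube3a2x male 258 was. A model with RIN alone as covariate gave -0.36 for Fxr1, -0.25 for Caprin1, 0.10 for Cyfip2 and 0.19 for Eif4ebp2. With principal components of the quality measures as covariates Nufip1 was at -0.03, and its male value was 0.06 where the reported fit gave -0.12, while Cyfip2 was at 0.11 and Eif4ebp2 at 0.05. Averaged over both sexes, the fitted genotype difference in PFC was between -0.04 and 0.04 on the log2 scale in all 9 genes. With RIN as the only covariate it was 0.11 for Cyfip2 and for Fxr1, and Fmr1 turned from -0.04 to 0.04.

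**Figure D3:**
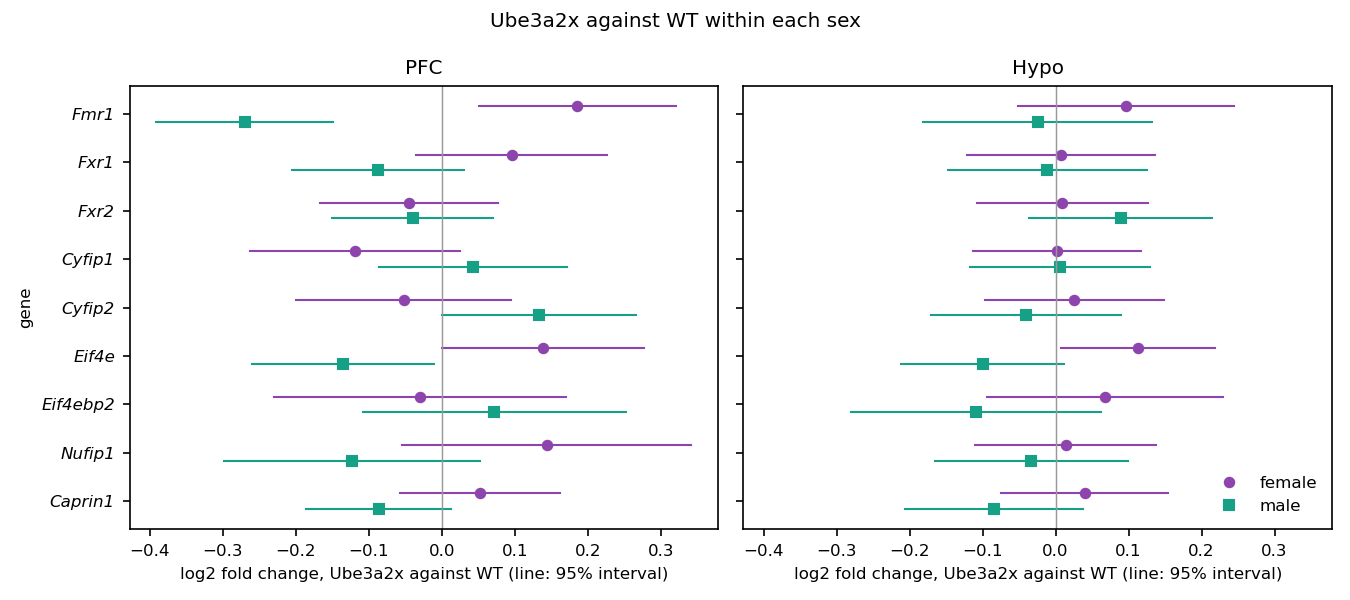
Log2 fold change of Ube3a2x against WT (horizontal axis) in females (circles) and males (squares), in PFC on the left and Hypo on the right, with 95% intervals as lines. In PFC the Fmr1 values are 0.19 and -0.27, and in Hypo 0.10 and -0.02. The PFC values are a description, since they picked the genes.

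Library quality moved with Fmr1 in PFC. Mean AT dropout was 19.5 in WT and 16.4 in Ube3a2x females, and 17.7 in WT and 18.7 in Ube3a2x males. Mean Fmr1 in the same order was 112, 139, 132 and 113 CPM, so the group ranks ran opposite. Other measures of the libraries differed between the male groups, where intronic reads were 4.40 to 5.85% in WT and 3.10 to 4.004% in Ube3a2x, without overlap, and reads on the expected strand averaged 93.6 and 97.5%. Genotype results in PFC were known when the genes were picked and the group means run opposite, so the relation to AT dropout is given there with no test. Across the 20 PFC libraries, log2 CPM of Fmr1 was lower at higher AT dropout (Pearson r = -0.755, Spearman rho = -0.681). Without the 2 libraries farthest from the median, Ube3a2x female 468 and Ube3a2x male 238, r was -0.487, and it was -0.716 when both measures were taken as deviations from their group means, an alternative added after seeing the data. For Fxr1, r was -0.730 and rho -0.568, with r at -0.416 without these libraries and -0.661 within groups. GC-rich Fxr2 went the other way, with r = 0.623 and rho = 0.510, and r at 0.468 without these libraries and 0.783 within groups. For Eif4e, r was -0.504 and rho -0.574, with r at -0.464 without these libraries and -0.336 within groups. For Caprin1, r was -0.566 and rho -0.439, with r at -0.1545 without these libraries and -0.445 within groups. Cyfip2, at 51.6% G and C, had r = -0.439 and rho = 0.083, with r at 0.003 without these libraries and -0.599 within groups. Cyfip1, Nufip1 and Eif4ebp2 had r of -0.160, -0.2575 and 0.112. After a correction that took the dependence on base composition and gene length out of every library, the male minus female effect of Fmr1 was -0.25 (SE 0.0677). The same correction gave -0.02 for Fxr1, -0.01 for Caprin1, 0.06 for Cyfip2, -0.10 for Nufip1 and -0.05 for Eif4ebp2, whose sign turned. It gave no value for Eif4e, Fxr2 and Cyfip1, which the filter on variance had removed, so their effects were not checked in this way. Without WT female 397 and Ube3a2x female 468 the value of Fmr1 was -0.38. The part of library quality in these differences was not tested. In the 18 Hypo libraries, Fmr1 and AT dropout gave r = -0.0942 (permutation p = 0.779, adjusted p = 0.877 over the 9 relations in Hypo) and rho = -0.622 (permutation p = 0.00713, adjusted p = 0.0642), and r was 0.0174 without the 2 libraries farthest from the median. Both values of r include WT female 471, the Hypo library with the lowest Fmr1 level (28.0 CPM). In Hypo r was -0.480 for Fxr1, -0.511 for Eif4e, -0.512 for Nufip1 and 0.474 for Fxr2 (permutation, adjusted p = 0.107 each). For Cyfip1, Cyfip2, Eif4ebp2 and Caprin1 it was 0.189, 0.364, 0.136 and -0.0375.

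**Figure D4:**
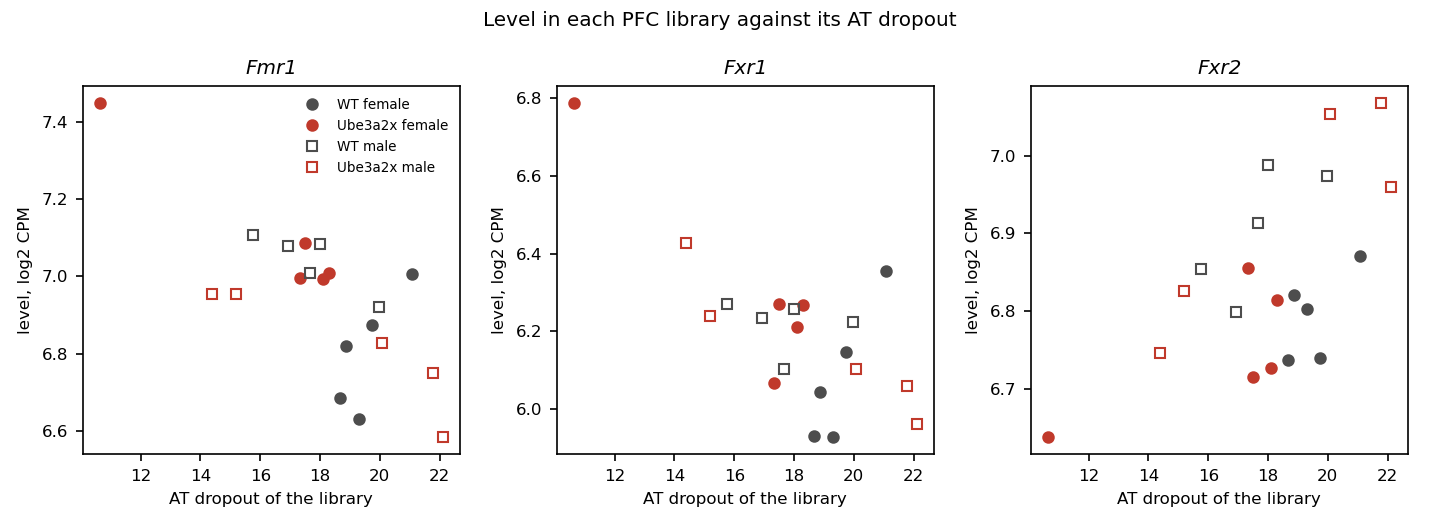
Level in log2 CPM (vertical axis) of Fmr1, Fxr1 and Fxr2 in the 20 PFC libraries against the AT dropout of the library (horizontal axis). Grey is WT, red Ube3a2x, circles females and open squares males. Fmr1 and Fxr1 slope down (r = -0.755 and -0.730) and Fxr2 slopes up (r = 0.623), and the point at an AT dropout of 10.6 is Ube3a2x female 468.

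Genotype in Hypo, a contrast the choice of genes did not use, gave no called difference in any member. Averaged over the sexes, 0 of 7 members tested passed in edgeR beside 0.00843% of all genes, which is Ube3a alone, and 0 of 9 without the filter on variance, beside 0.00716%. Limma voom and DESeq2 called 0 members as well, and 0 of 9 had an unadjusted p under 0.05, as 5% of all genes did. Among females, Fmr1 was at 28.0, 52.7, 53.3 and 63.5 CPM in WT and 55.5, 61.0, 61.6, 61.7 and 65.2 CPM in Ube3a2x mice. Among males, it was at 50.5, 52.1, 56.3 and 59.7 CPM in WT and 51.4, 53.1, 57.9, 59.4 and 59.9 CPM in Ube3a2x mice. The groups overlapped in both sexes, as for all 9 members (1.46% of all genes did not overlap in females and 1.5% in males), and the low value of 28.0 CPM is mouse 471. The fitted log2 fold change of Fmr1 was 0.04 (95% interval -0.07 to 0.15), and the 9 members lay between -0.02 and 0.05. Without mouse 471 Fmr1 was at 0.06, and with RIN as the only covariate Fmr1 was at 0.17 and Cyfip2 at 0.15, neither of them called in edgeR.

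The male minus female effect in Hypo was called for 0 of 7 members, and for 0% of all genes. Fmr1 differed by -0.12 (95% interval -0.33 to 0.09, adjusted p = 0.737 in edgeR), by 0.04 without mouse 471 and by -0.21 without WT female 262. With principal components of the quality measures as covariates it was -0.39 (adjusted p = 0.21 in edgeR). The difference between the tissues in this effect was not tested. Eif4e had the smallest unadjusted p, with a difference of -0.21 (95% interval -0.36 to -0.06, unadjusted p = 0.00784, adjusted p = 0.726 in edgeR without the filter on variance), 1 of 9 members with an unadjusted p under 0.05 where 6.54% of all genes had one. Limma voom and DESeq2 called 0 members. Its levels in females were 117, 121, 122 and 143 CPM in WT and 137, 140.0, 144, 146 and 149 CPM in Ube3a2x mice. In males they were 129.5, 130.0, 139.7 and 142 CPM in WT and 113, 120.2, 123, 129 and 132 CPM in Ube3a2x mice. Ube3a2x females were above 3 of 4 WT females, and the male groups overlapped by a single Ube3a2x library. Without mouse 471 the difference was -0.12 (unadjusted p = 0.104, adjusted p = 0.9997 in edgeR), and -0.14 (unadjusted p = 0.0301, adjusted p = 0.999) in the fit without the filter on variance.

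Sex gave no called difference in any member. Averaged over genotypes, 0 of 6 members were called in PFC (0.0917% of all genes were) and 0 of 7 in Hypo (2.3%), also in limma voom and DESeq2. At an unadjusted p under 0.05 there was 1 of 9 in PFC (8.48% of all genes) and 0 of 9 in Hypo (18%). Fmr1, on the X chromosome, was at 126 ± 21.1 CPM in females and 122 ± 13.5 CPM in males of PFC (SD, n = 10 each), a fitted log2 difference of -0.04 (95% interval -0.14 to 0.05). In Hypo it was at 55.8 ± 11.4 CPM in females and 55.6 ± 3.82 CPM in males (SD, n = 9 each), a difference of -0.09 (95% interval -0.20 to 0.02). It was -0.04 without WT female 262 and 0.04 with RIN as the only covariate. The 1 gene in PFC was Fxr2, with a male minus female value of 0.09 (unadjusted p = 0.0436, adjusted p = 0.582 in edgeR), beside 0.08 in Hypo (unadjusted p = 0.0545, adjusted p = 0.287 in edgeR). Of the 93 pathway genes tested in Hypo, 0 were called for genotype or for the male minus female effect, and 2 for sex, Camk2a higher in males by 0.20 (adjusted p = 0.0208 in edgeR) and Pclo, a presynaptic scaffold, at -0.26 (adjusted p = 0.00850). In PFC 0 of 81 were called for sex.

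Correlations between members from library to library are given as a description. Over the 20 PFC libraries, log2 CPM of Fmr1 correlated with Caprin1 (r = 0.882), Fxr1 (0.877) and Eif4e (0.653), and with 0.806, 0.794 and 0.662 without Ube3a2x female 468. Fxr1 and Caprin1 correlated at 0.890, while Fxr2 was at 0.591 with Eif4ebp2, -0.393 with Fmr1 and -0.452 with Caprin1. Without Ube3a2x female 468 these 3 values were 0.697, -0.192 and -0.265. Cyfip1 and Cyfip2 correlated at 0.522 with that library and 0.701 without it. In Hypo, Fmr1 correlated with Caprin1 at 0.929, Cyfip2 at 0.832, Eif4ebp2 at 0.824 and Cyfip1 at 0.820, but without mouse 471 these were 0.654, -0.143, 0.107 and 0.0708. With Fxr1 and Eif4e it correlated at 0.639 and 0.564, and at 0.737 and 0.626 without mouse 471. With Fxr2 and Nufip1 the values were -0.589 and -0.586, and -0.428 and 0.287 without that mouse. The values of 1 library share its depth and base composition.

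The genes closest to Fmr1 across the 20 PFC libraries, of 12823 compared, were Yipf6 (r = 0.943), Creb1 (0.942), Rc3h2 (0.939), Syncrip (0.935) and Slc25a32 (0.935). Creb1 encodes a transcription factor of activity-dependent expression and Syncrip an RNA-binding protein of transport granules. Without WT female 397 and Ube3a2x female 468 these 5 genes ranked between 1 and 7. Across the 18 Hypo libraries, of 13963 compared, they were Elmod2 (0.987), Rps6ka3 (0.979), Bicd1 (0.978), Pkn2 (0.977) and Prkaa1 (0.9753), at ranks 1 to 16 without mouse 471. All 10 genes had exons of 38.3 to 44.4% G and C, under the median of 49.1%, as Fmr1 itself.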

How the data were processed

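PFC and Hypo libraries (TruSeq stranded mRNA, paired-end, 1 batch) were aligned by the authors to mm10 (GRCm38) with STAR and counted with featureCounts, and the deposited values were raw counts per gene. The deposited quality table held scores (RIN and AT dropout), fractions of bases and reads, and ratios of coverage, which the authors took from a Bioanalyzer and Picard, with versions not given in the sources used here. Groups, replicates and mice came from the labels. The 9 members and all gene lists were chosen with earlier results of these data known.

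A gene was dropped where at least 2 libraries held under 100 of its reads, and after that the 15% of genes with the lowest variance within a tissue. This left 10900 genes and 6 members in PFC and 11869 genes and 7 members in Hypo. Counts were normalised by TMM and tested with edgeR 4.0.16 (quasi-likelihood, Benjamini-Hochberg, threshold 0.05, R 4.3.3), with 4 groups, RIN and 2 surrogate variables (sva 3.50.0). Tissues were compared over 38 libraries and 12494 genes with 8 groups and RIN, without the filter on variance. Members removed by that filter were taken from the fit without it. CPM used TMM over 38 libraries, log2 CPM a prior count of 2, and RPKM the exon union of GENCODE vM21 (53905 of 54165 genes matched). Limma 3.58.1, DESeq2 1.42.0 and the other alternatives are given at the end. All 9 members were named, with up to 2 pathway genes per list and direction by smallest p among those called, and the 5 genes closest to Fmr1 by correlation in each tissue. A pathway gene that this rule names is not reported here. Promoter sequences are from RefSeq. The scripts were tested on simulated data. The 13 mice with both tissues pair the libraries by the labels. Deviations of a mouse's libraries from their group means correlated at -0.556 to 0.408 (median -0.0559), over 0.1 in 3 of 13 mice.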

Additional observations from a re-analysis of the deposited data

Results flagged for a closer look

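In 7 of 72 groups of 4 or 5 libraries, 1 library lay far from the rest by Dixon's test. Chance alone gives about 1 in 20 groups.

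In PFC, the library of Ube3a2x female 468 stood out in 3 genes. It held Fmr1 at 174.8 CPM where the other 4 libraries of its group lay between 127.4 and 135.8 CPM, Fxr1 at 110.5 CPM against 67 to 77.19 CPM, and Cyfip2 at 2229 CPM against 1422 to 1565 CPM. Its AT dropout of 10.6 was the lowest of the 20 PFC libraries. Fxr1 in WT male 266 was at 68.77 CPM against 74.8 to 77.21 CPM.

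In Hypo, Cyfip2 in WT female 471 was at 338.9 CPM against 689.1 to 729.8 CPM. Fxr2 in Ube3a2x male 404 was at 115.7 CPM against 130.5 to 134.6 CPM, and Eif4ebp2 in Ube3a2x male 238 at 74.68 CPM against 85.87 to 87.46 CPM.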

How the results depend on the processing

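The number of members called stayed at 0 for genotype, its difference between sexes and sex in Hypo, and for sex in PFC, under 9 alternatives each and with each library left out. The filter on variance kept some members out of most of these fits. Apart from the reported fit, Fxr2 in Hypo was in 2 alternatives and 0 fits with a library left out, and Eif4e in 2 and 1. For sex in PFC, Fxr2 and Eif4e were in 1 and 0, Cyfip1 in 2 and 1, and Nufip1 in 8 and 13. Between tissues the 8 calls became 3 with the replicate block over the 13 mice and 5 in WT libraries alone. The cause was not tested, and both fits hold fewer libraries. Within a tissue each mouse gave 1 library, so no block was possible there. With the mouse as a random effect over all 38 libraries (correlation -0.157) there were 8 calls, and leaving out 1 library gave 7 to 8. The effect of Fmr1 in PFC, male minus female, was -0.249 after the correction for base composition and length, and lay between -0.548 and -0.386 with 1 library left out. The alternatives that left out 2 or 3 libraries together, that left out Hypo mouse 471 along with the filter on variance, without RIN, with the random effect and with deviations from group means were chosen after seeing the data.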
